A study of Mus musculus with 6 samples.

Results

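Glypicans and syndecans are the cell surface proteins that carry most of the heparan sulfate of a cell's membrane. The genes described here were the 10 rows of the deposited table with the symbols Gpc1 to Gpc6 and Sdc1 to Sdc4, out of 26231 genes listed. All 6 glypicans and all 4 syndecans were present. RNA was measured by RNA sequencing in 6 libraries of mouse embryonic fibroblasts (MEFs), 3 labelled MEF WT (control) and 3 labelled MEF Nf2 KO. Nf2 encodes Merlin, a protein that links membrane receptors to the actin cortex. The comparison of the lines asks which RNAs differ where Nf2 was targeted. The family was selected on earlier results of these libraries, so the difference between the lines is given for its members as a description. No p-value of a member is printed for it, and whether a member passed the threshold of the fit over all genes describes the values that chose it and is no independent test.

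By the labels, both groups came from FVB embryos aged about 14 days, although the study's methods give an earlier day. They were grown with 10% serum and were kept without serum for 24 h before RNA was taken. According to the study's methods, the cells of both groups carried floxed Nf2 alleles and SV40 large T antigen. The control line received a vector lentivirus and the other line a Cre lentivirus, each driven by the CMV promoter, with GFP. "WT" in the label thus stands for floxed cells without Cre. There was 1 line of each kind, and nothing in the labels says that the libraries of a line came from separate cell preparations, so that p-values measure only the spread between these libraries, which may be technical. The replicate numbers 1, 2 and 3 in the labels go with the library marks A, B and 2018 in both lines.

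Every heparan sulfate proteoglycan consists of a core protein to which long sulfated sugar chains are attached. Glypicans are held in the outer leaflet of the membrane by a glycosylphosphatidylinositol (GPI) anchor and bind Wnt, Hedgehog, BMP and FGF ligands. Syndecans span the membrane and have a short cytoplasmic tail that contacts PDZ proteins, protein kinase C and the actin cytoskeleton. Fibroblasts are known for syndecan-4 at their focal adhesions.

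The reading frame of the 4 syndecan transcripts closes with a closely related stretch that encodes the PDZ-binding end of the tail. It is shown because it is a feature by which the syndecans differ from the GPI-anchored glypicans. The sequences below are the last 105 coding bases, 5′ to 3′ on the coding strand, from the GENCODE transcripts of build GRCm38. Capitals mark the last 4 codons before the stop codon.
Sdc1, chr12:8791703-8791807, plus strand: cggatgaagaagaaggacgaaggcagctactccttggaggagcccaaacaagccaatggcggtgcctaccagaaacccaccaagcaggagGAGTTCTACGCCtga
Sdc2, chr15:33032436-33032540, plus strand: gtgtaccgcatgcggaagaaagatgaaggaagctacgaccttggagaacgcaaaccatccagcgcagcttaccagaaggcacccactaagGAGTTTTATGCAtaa
Sdc3, chr4:130822705-130822809, plus strand: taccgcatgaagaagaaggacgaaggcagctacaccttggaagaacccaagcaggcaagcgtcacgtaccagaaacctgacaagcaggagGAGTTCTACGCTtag
Sdc4, chr2:164426086-164426190, minus strand: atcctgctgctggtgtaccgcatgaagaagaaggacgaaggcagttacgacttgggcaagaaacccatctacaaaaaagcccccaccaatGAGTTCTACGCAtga

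Between 9 and 11 of these 12 capital bases were equal in each pair of syndecans. The longest run of identical coding bases was 29 for Sdc3 and Sdc4, 27 for Sdc1 and Sdc3, and 23 for Sdc1 and Sdc4. Sdc2 shared no run above 14 bases with another syndecan. No pair of glypicans shared a run above 17 bases, the length found for Gpc4 and Gpc6. The coding regions held from 557 codons (Gpc1 and Gpc4) to 645 codons (Gpc5) in the glypicans, against 198 (Sdc4) to 442 (Sdc3) in the syndecans. Of the 31-base stretches in the exons of Gpc1, Gpc4, Gpc6 and Sdc3, 0% occurred in another gene. For Gpc2 the share was 52.0%, since its exons overlap those of Gm43720 on the same strand, so the value of Gpc2 is uncertain where reads could be split. Gm43720 itself was listed at no more than 0.195 RPKM, the unit of the deposited table, which scales reads for exon length and library depth.

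The steps between low RPKM values gave depths of 13443649 and 18945220 reads for replicates 1 and 2 of the control line and of 18063129 and 19264465 reads for those of the other line. Replicate 3 was deeper, at 61158807 reads in the control line and 73009955 reads in the other. Nf2 was measured at 14.3, 13.7 and 13.1 RPKM in the control libraries and at 15.4, 12.9 and 13.9 RPKM in those labelled Nf2 KO. Nf2 RNA was therefore not lower where the knockout label stands, and a gene-level value does not show whether a floxed part was missing. Those libraries are called "libraries labelled Nf2 KO" throughout, and each direction below rests on that label. Of 10 fibroblast markers, 9 reached 1 RPKM in a library, and the summed level was 1383 to 2078 RPKM in the control libraries and 1133 to 1587 RPKM in the others. Fap was at or below 0.0290 RPKM throughout, and of the 9 others, 8 had a lower mean in the libraries labelled Nf2 KO. Pdgfra was at 9.75 ± 3.93 RPKM against 1.01 ± 0.386 RPKM, Dcn at 2.73 ± 1.21 RPKM against 0.0906 ± 0.0563 RPKM, Thy1 at 5.92 ± 1.52 RPKM against 2.60 ± 0.929 RPKM and Col3a1 at 59.8 ± 38.6 RPKM against 30.5 ± 23.9 RPKM, while Pdgfrb, the exception, was at 23.2 ± 12.2 RPKM against 24.2 ± 13.5 RPKM (SD, n = 3 each). Col1a1, Col1a2 and Vim were likewise lower in all 3 same-numbered pairs. The part of these markers in the results for the glypicans and syndecans was not tested. None of 5 epithelial markers reached 1 RPKM, with sums up to 0.698 RPKM in the control libraries and 0.892 RPKM in the others. Of 5 macrophage markers only Cd68 reached 1 RPKM, with Ptprc at or below 0.00896 RPKM, and the sums were 6.64 to 8.26 RPKM and 5.22 to 7.39 RPKM. Kdr alone of 4 endothelial markers, Acta1 alone of the 4 muscle markers in the table (of 5 sought) and Tubb3 alone of 4 neural and Schwann markers reached 1 RPKM. In bulk RNA, fewer cells of a type and less RNA per cell cannot be told apart.

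Gpc4 was the glypican with the highest RNA level in both lines, and its level was 2.44 times as high in the libraries labelled Nf2 KO. Gpc1, the other abundant glypican, was at 53.6% of its control level there. Sdc3 was at 56.8% and Sdc4 at 70.9% of control, whereas the libraries of the lines overlapped for Sdc1, Sdc2 and Gpc2. Gpc3, Gpc5 and Gpc6 stayed below 0.35 RPKM in every library.

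**Figure D1:**
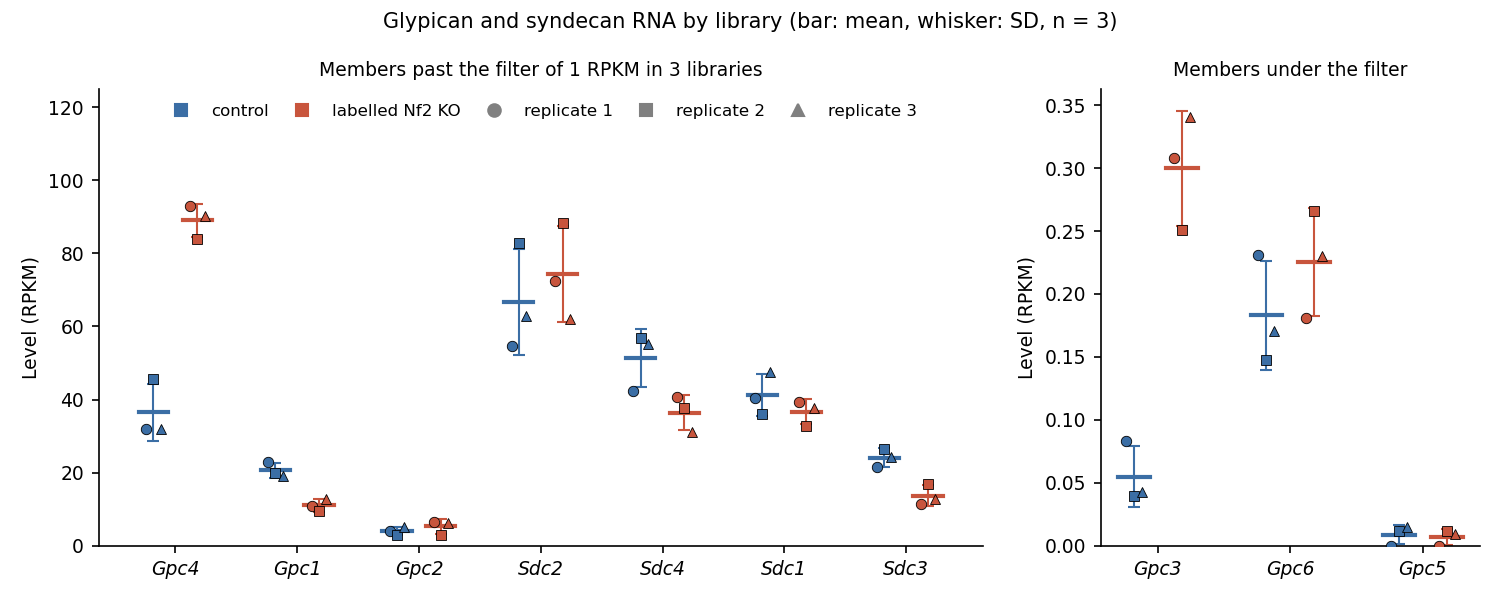
Level in RPKM (linear axes) of each member in each of the 6 libraries, with symbols for the replicate number, a bar for the mean and a whisker for the SD (n = 3). Gpc4 lies between 84.0 and 92.9 RPKM in the libraries labelled Nf2 KO and between 32.1 and 45.5 RPKM in the control libraries, and the members in the right panel stay below 0.35 RPKM.

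Gpc4 (ENSMUSG00000031119.4, chrX:52053021-52165252, minus strand, GRCm38) encodes glypican-4, which is known as a coreceptor for Wnt and FGF ligands. It was measured at 32.1, 45.5 and 32.1 RPKM in control replicates 1, 2 and 3 and at 92.9, 84.0 and 90.1 RPKM in the libraries labelled Nf2 KO. The lowest of the latter was above the highest control, and the control of replicate 2 stood above the other control libraries. The means were 36.5 ± 7.75 RPKM and 89.0 ± 4.57 RPKM (SD, n = 3 each). The log2 fold change was 1.28 ± 0.15 (SE) on the log2(RPKM + 1) scale of all fits here. Within same-numbered libraries the level was 2.90, 1.85 and 2.81 times as high.

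Gpc1 (ENSMUSG00000034220.7, chr1:92831645-92860779, plus strand) encodes glypican-1, a coreceptor for heparin-binding growth factors such as FGF2. Its level was 22.9, 19.9 and 19.0 RPKM in the control libraries and 10.9, 9.44 and 12.8 RPKM in those labelled Nf2 KO, with no overlap. The means of 20.6 ± 2.07 RPKM and 11.04 ± 1.70 RPKM (SD, n = 3 each) gave a log2 fold change of -0.85 ± 0.13 (SE). The difference was -1.01, -0.9997 and -0.53 within replicates 1, 2 and 3, so replicate 3 showed the smallest decrease. Gpc4 and Gpc1 thus differed in opposite directions. The ratio of Gpc4 to Gpc1, in RPKM, was 1.40, 2.29 and 1.69 in the control libraries and 8.55, 8.90 and 7.03 in the others.

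Gpc2 (chr5:138273655-138280005, minus strand) encodes glypican-2, known mainly from the developing nervous system. It was at 4.02, 2.99 and 5.24 RPKM in the control libraries and at 6.42, 3.03 and 6.29 RPKM in those labelled Nf2 KO. Replicate 2 was the lowest library of each line, and the lines overlapped. The log2 fold change was 0.27 ± 0.28 (SE), and with 1 library left out it lay between 0.11 (without control replicate 2) and 0.56 (without replicate 2 labelled Nf2 KO).

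Gpc3 (chrX:52272426-52613950, minus strand) encodes glypican-3, which binds Hedgehog ligands and restrains growth in the embryo. It was at 0.0828, 0.0392 and 0.0425 RPKM in the control libraries and at 0.308, 0.251 and 0.341 RPKM in those labelled Nf2 KO, so that the lines did not overlap. The read steps put these levels at 3, 2 and 7 reads against 15, 13 and 67 reads. Most of the reads of each line thus came from its deepest library, replicate 3. Gpc3 was under the filter of 1 RPKM in 3 libraries and was not tested.

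Gpc6 (chr14:116925315-117976544, plus strand), which encodes glypican-6, known for its part in the growth of long bones, was at 0.231, 0.148 and 0.170 RPKM against 0.181, 0.266 and 0.230 RPKM. These values came from 18 to 108 reads per library and overlapped between the lines. Gpc5 (chr14:115092215-116525179, plus strand), which encodes glypican-5, was listed at 0 in replicate 1 of both lines and rested on 1 to 4 reads in the other libraries. Gpc6 and Gpc5 were likewise not tested.

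The summed level of the glypicans was 59.3, 68.5 and 56.5 RPKM in the control libraries and 110.7, 97.0 and 109.9 RPKM in those labelled Nf2 KO. Gpc4 made up 59.0% ± 6.47 of this sum in the control line and 84.2% ± 2.28 in the other, while the share of Gpc1 was 33.7% ± 4.83 and 10.4% ± 1.102 (SD, n = 3 each). Gpc2 accounted for 6.80% ± 2.45 and 4.89% ± 1.52. The remaining glypicans held less than 1 percent of the sum in each library.

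**Figure D2:**
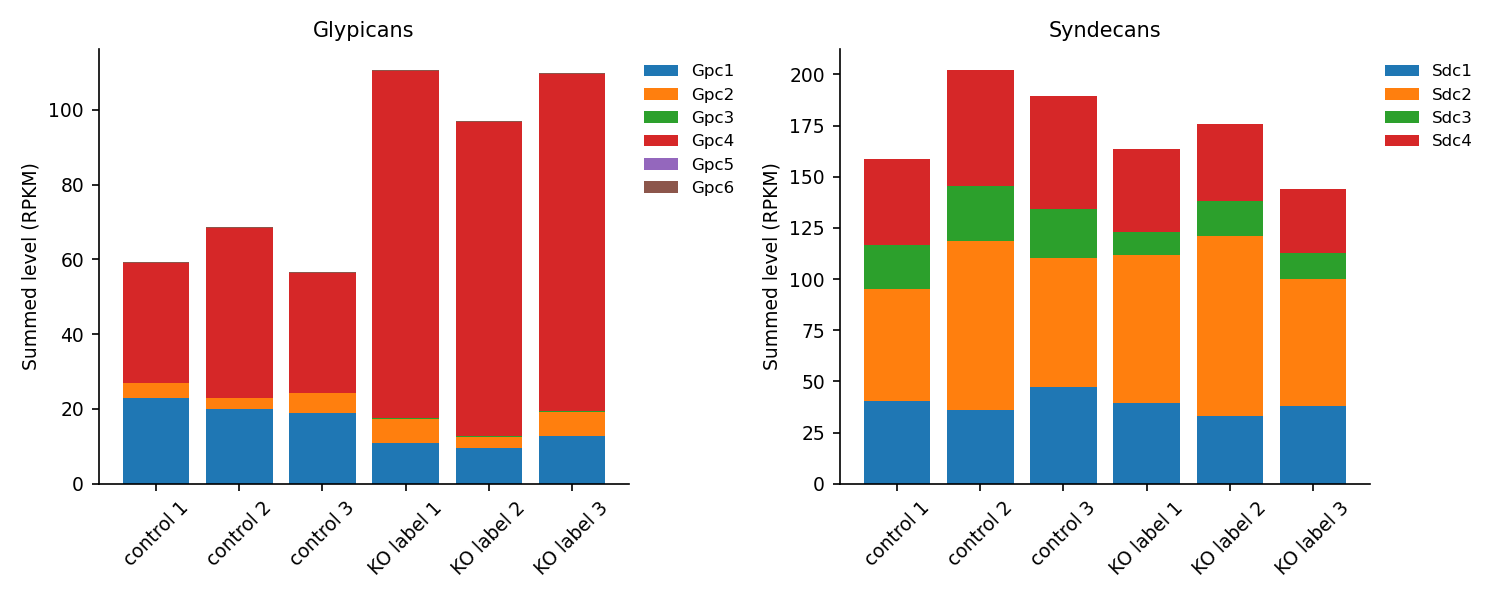
Summed level in RPKM of the glypicans (left) and the syndecans (right) in each library, stacked by gene. The glypican bars lie between 56.5 and 68.5 RPKM in the control libraries and between 97.0 and 110.7 RPKM in those labelled Nf2 KO, where Gpc4 takes up most of each bar, and the syndecan bars of the lines overlap.

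Sdc2 (chr15:32920723-33034935, plus strand) encodes syndecan-2, the main syndecan of many mesenchymal cells. It was the most abundant of the 10 genes in the control line, at 54.6, 82.8 and 62.8 RPKM, and was at 72.4, 88.3 and 62.1 RPKM in the libraries labelled Nf2 KO. Replicate 2 was the highest library in each line and the lines overlapped. The log2 fold change was 0.16 ± 0.19 (SE), and with 1 library left out it lay between 0.03 (without control replicate 1) and 0.32 (without control replicate 2).

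Sdc4 (chr2:164424247-164443887, minus strand), which encodes the syndecan of focal adhesions, was at 42.2, 56.8 and 55.2 RPKM in the control libraries and at 40.6, 37.7 and 31.05 RPKM in those labelled Nf2 KO. The lines did not overlap, but control replicate 1 and replicate 1 labelled Nf2 KO lay next to each other. The means were 51.4 ± 8.02 RPKM and 36.4 ± 4.91 RPKM (SD, n = 3 each). The log2 fold change was -0.48 ± 0.16 (SE), with differences of -0.05, -0.58 and -0.81 within replicates 1, 2 and 3. Without replicate 1 in both lines it was -0.70.

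Sdc1 (chr12:8771323-8793715, plus strand) encodes syndecan-1, which is best known from epithelia and plasma cells. Its level was 40.3, 36.1 and 47.4 RPKM in the control libraries and 39.4, 32.9 and 37.8 RPKM in those labelled Nf2 KO, in libraries where every epithelial marker was under 1 RPKM. The lines overlapped, with a log2 fold change of -0.16 ± 0.13 (SE) that lay between -0.25 (without control replicate 2) and -0.06 (without control replicate 3) with 1 library left out.

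Sdc3 (chr4:130792537-130826319, plus strand) encodes syndecan-3, the syndecan with the longest extracellular part, known from neural and muscle tissue. It was at 21.5, 26.6 and 24.2 RPKM in the control libraries and at 11.4, 16.8 and 12.8 RPKM in those labelled Nf2 KO. The lines did not overlap, and replicate 2 was the highest library of each. The means of 24.1 ± 2.52 RPKM and 13.7 ± 2.80 RPKM (SD, n = 3 each) gave a log2 fold change of -0.78 ± 0.16 (SE). The differences within pairs were -0.86, -0.63 and -0.87.

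The 4 syndecans summed to 158.7, 202.2 and 189.7 RPKM in the control libraries and to 163.8, 175.6 and 143.8 RPKM in those labelled Nf2 KO, with overlap. The share of Sdc3 in this sum was 13.2% ± 0.395 in the control line and 8.49% ± 1.35 in the other, and that of Sdc4 was 27.9% ± 1.27 and 22.6% ± 1.90. Sdc2 held 36.2% ± 4.20 and 45.9% ± 3.82, and Sdc1 held 22.8% ± 4.26 and 23.0% ± 3.88 (SD, n = 3 each).

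On the per-length scale the control line had its highest mean level for Sdc2, followed by Sdc4, Sdc1 and Gpc4, and the libraries of each neighbouring pair among these overlapped. Sdc3 and Gpc1 came next and overlapped with each other. Gpc2, Gpc6, Gpc3 and Gpc5 followed, each below every library of the gene before it. In the libraries labelled Nf2 KO, Gpc4 and Sdc2 overlapped at the top. Sdc1 and Sdc4 overlapped below them, as did Sdc3 and Gpc1 and, under 1 RPKM, Gpc3 and Gpc6.

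Across the whole table, 11067 genes passed the filter and were fitted with limma, and 117 of them (1.06%) differed between the lines at an adjusted p below 0.05, with 53 higher and 64 lower in the libraries labelled Nf2 KO. Of the 10 members, 7 passed the filter, and Gpc4 (higher) and Gpc1 (lower) were among those 117 genes. Once same-numbered libraries were treated as pairs (the replicate block), 833 genes (7.53%) did so, of which 331 were higher and 502 lower, and Sdc3 joined Gpc4 and Gpc1. The libraries of the lines did not overlap for 1673 genes (15.1%), and of the tested members for Gpc1, Gpc4, Sdc3 and Sdc4. Nothing is read from these counts, since the members were chosen by this contrast. The median log2 fold change of the 7 tested members was -0.16, against -0.01 over all genes tested. Gpc4 no longer passed when control replicate 1 or 3, or replicate 1 or 3 labelled Nf2 KO, was left out, and Gpc1 also not without control replicate 2 or replicate 2 labelled Nf2 KO, although over all settings the log2 fold change stayed between 1.17 and 1.48 for Gpc4 and between -1.01 and -0.75 for Gpc1.

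**Figure D3:**
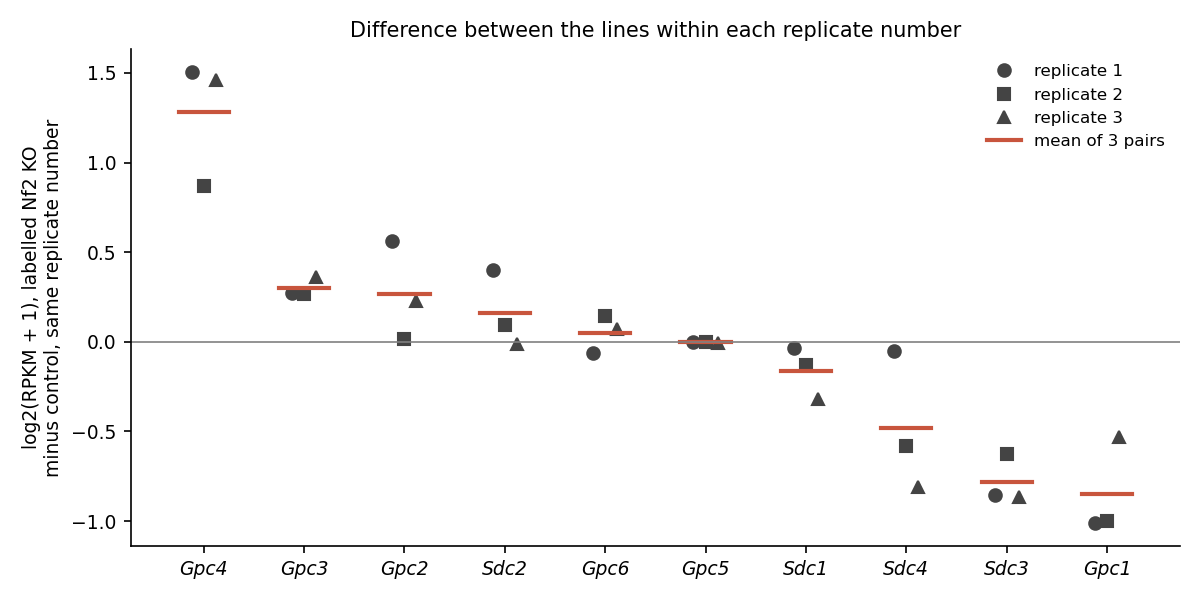
Difference of log2(RPKM + 1) between the library labelled Nf2 KO and the control library of the same replicate number, with a line for the mean of the 3 pairs. Gpc4, Gpc3 and Gpc2 lie above 0 and Gpc1, Sdc3, Sdc4 and Sdc1 lie below 0 in all 3 pairs, with Gpc2 at 0.01 in replicate 2 and Sdc1 at -0.03 in replicate 1, and on this scale the differences of Gpc3, Gpc5 and Gpc6, whose levels are far below 1 RPKM, are compressed toward 0.

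The replicate number was tested apart from the line, with a limma F-test that had the line as a covariate and did not use the contrast from which the members were chosen. Of all genes tested, 2347 (21.2%) passed at an adjusted p below 0.05, and of the 7 tested members Gpc2 passed (adjusted p = 0.0333). The mean level of Gpc2 over both lines was 5.22, 3.01 and 5.77 RPKM for replicates 1, 2 and 3. Sdc3, at 16.5, 21.7 and 18.5 RPKM, and Sdc2, at 63.5, 85.5 and 62.5 RPKM, were highest in replicate 2 and did not pass (adjusted p = 0.0575 and 0.0653). Sdc1 (adjusted p = 0.140), Gpc1 (0.476), Gpc4 (0.592) and Sdc4 (0.714) did not pass either. Sdc2 and Sdc3 passed as well when each library was centred on its median, and Gpc2 did not pass after quantile normalization or when any library of replicate 2 or 3 was left out. The deepest libraries were those of replicate 3, and the part of depth in these values was not tested.

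**Figure D4:**
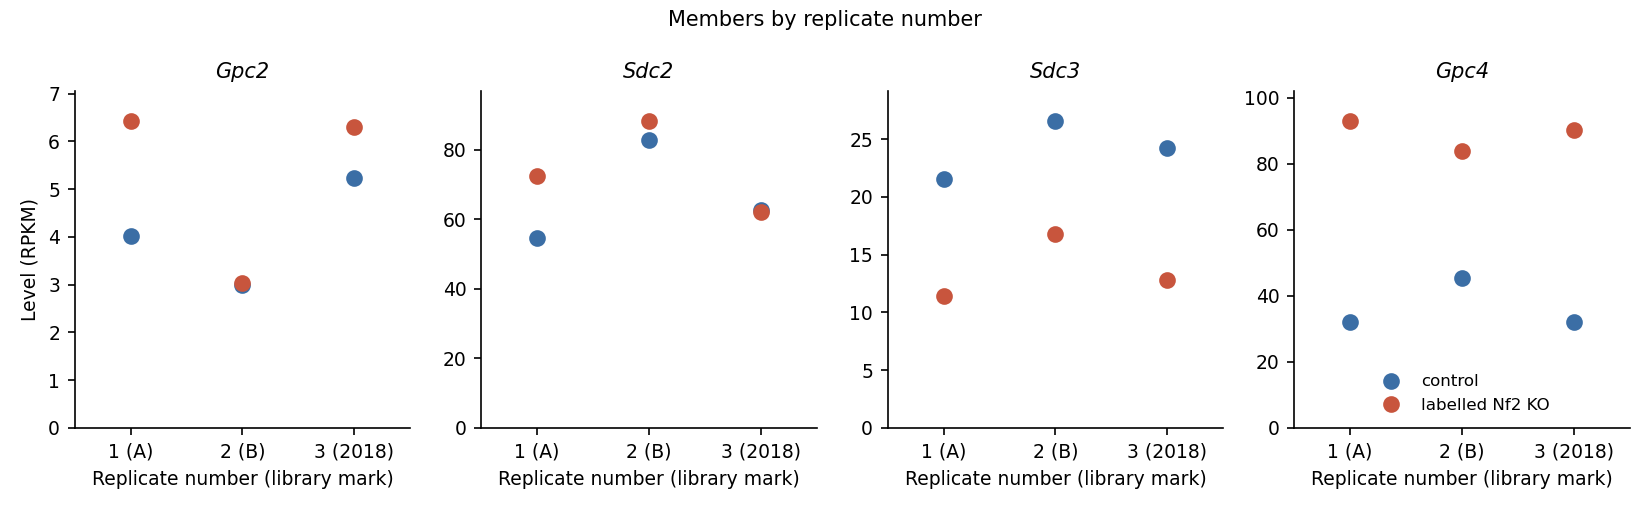
Level in RPKM (axes from 0) of Gpc2, Sdc2, Sdc3 and Gpc4 by replicate number, with the library mark in brackets and 1 point per library. Gpc2 is lowest and Sdc2 and Sdc3 are highest at replicate 2 in both lines, while the Gpc4 points are split by line at each number.

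Gpc4 and Gpc3 are neighbours on chromosome X, both on the minus strand and 107 kb apart, and Gpc5 and Gpc6 are neighbours on chromosome 14, 400 kb apart. These positions were looked up after the values had been seen. Within 1 Mb of Gpc4 the table held 12 genes besides Gpc4 and Gpc3, of which 7 were tested. In limma, 0 of those 7 passed between the lines without a block, near the 1.06% of all genes, and with the replicate block, where 7.53% of all genes passed, C430049B03Rik did (adjusted p = 0.0198, log2 fold change -0.61). Hs6st2, a neighbour that encodes a 6-O-sulfotransferase of heparan sulfate, was at 25.7 ± 5.02 RPKM and 33.9 ± 4.05 RPKM (SD, n = 3 each), with a log2 fold change of 0.39 and an adjusted p of 0.520 in limma. Phf6 and Hprt, on the other side of Gpc3, had log2 fold changes of 0.02 and -0.16.

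Promoter sequences are shown for Gpc3, Sdc3 and Sdc4, the members whose libraries did not overlap between the lines and whose 250 bases before the RefSeq start (GRCm38.p6) lie outside annotated exons. They are written 5′ to 3′ on the strand of the gene. Capitals mark the GC box GGGCGG or its reverse complement CCGCCC.
Gpc3, chrX:52613975-52614224, minus strand: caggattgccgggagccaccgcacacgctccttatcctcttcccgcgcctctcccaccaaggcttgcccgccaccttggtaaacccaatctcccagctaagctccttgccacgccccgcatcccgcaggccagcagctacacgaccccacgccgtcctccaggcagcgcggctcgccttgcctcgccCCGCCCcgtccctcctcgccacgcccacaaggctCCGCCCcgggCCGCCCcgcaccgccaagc
Sdc3, chr4:130792287-130792536, plus strand: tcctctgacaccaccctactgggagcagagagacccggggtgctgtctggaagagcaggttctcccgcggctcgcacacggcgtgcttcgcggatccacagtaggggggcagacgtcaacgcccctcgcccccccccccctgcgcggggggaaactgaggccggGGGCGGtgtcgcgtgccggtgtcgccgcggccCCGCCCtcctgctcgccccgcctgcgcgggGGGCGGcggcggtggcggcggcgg
Sdc4, chr2:164443189-164443438, minus strand: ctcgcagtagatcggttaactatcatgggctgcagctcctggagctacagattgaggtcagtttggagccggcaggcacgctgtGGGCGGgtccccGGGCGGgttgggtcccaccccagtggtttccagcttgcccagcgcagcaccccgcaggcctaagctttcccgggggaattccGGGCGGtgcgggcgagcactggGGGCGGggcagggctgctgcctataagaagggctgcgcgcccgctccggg

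The windows of Gpc3 and Sdc3 held 3 GC boxes each and that of Sdc4 held 4, a motif found on either strand in 32.7% of 32851 RefSeq promoter windows of this length. Their GC content was 71.6% for Gpc3, 76.4% for Sdc3 and 68% for Sdc4, against a median of 52.4% over all windows. This was not particular to members whose lines did not overlap. The windows of Gpc2 and Sdc1, whose lines overlapped, also held 3 GC boxes each, with a GC content of 66.4% and 66%. That of Gpc4 held 1 GC box. The letters GGAATG or CATTCC, the core of the motif of the TEAD factors, were in none of the 3 windows shown. They occurred 1 time in the window of Gpc4, which overlaps an annotated exon, and were in 12.6% of all windows. RefSeq entries were matched for 7 of the 10 members.

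The other genes of the pathway were taken from 8 lists with 98 genes, of which 93 were in the table and 64 were tested. The lists were also chosen with earlier results of these libraries known, so that neither their counts nor the p-values of their genes are independent evidence of a difference. Only Prkca passed between the lines without a block, a share of 1.56% beside the 1.06% of all genes. Prkca encodes protein kinase C alpha, which binds the tail of syndecan-4, and was at 10.6, 8.72 and 11.4 RPKM in the control libraries against 4.62, 4.73 and 4.62 RPKM (log2 fold change -0.99 ± 0.11 SE, limma adjusted p = 0.0222). The lines did not overlap for Prkca. It no longer passed when any library of replicate 1 or 3 was left out, where limma called 0 listed genes and 8 to 11 had an unadjusted p below 0.05.

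With the replicate block, 9 of the 64 listed genes passed (14.1%, beside 7.53% of all genes), 2 higher and 7 lower. Among ligands and partners of glypicans these were Bmp4 and Wnt5a, higher, and Igf2 and the receptor phosphatase gene Ptprs, lower. Bmp4, which encodes a BMP ligand, was at 1.88, 1.08 and 3.37 RPKM in the control libraries and at 28.9, 7.84 and 15.4 RPKM in the others (limma adjusted p = 0.0127 with the block and 0.0839 without). Wnt5a, a ligand of non-canonical Wnt signaling, was at 4.80 ± 1.56 RPKM against 10.2 ± 3.55 RPKM (SD, n = 3 each, limma adjusted p = 0.00512 with the block and 0.247 without). Igf2 was at 2.73 ± 0.871 RPKM against 0.489 ± 0.366 RPKM (limma adjusted p = 0.00286 with the block and 0.0666 without). Among 6 tested genes for other heparan sulfate or part-time proteoglycan cores, Col18a1 (collagen XVIII), Tgfbr3 (betaglycan) and Cd44 were lower with the block, with log2 fold changes of -1.74, -0.87 and -0.76. Without the block their limma adjusted p was 0.102, 0.366 and 0.785, and the lines overlapped for Tgfbr3 and Cd44. The integrin subunit gene Itgb3 was lower with the block beside Prkca, among 11 tested syndecan partners.

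For the genes that build, modify and degrade the chains, limma called, with or without the block, 0 of 9 genes of the linker and chain polymerization, 0 of 6 genes of sulfation and epimerization, 0 of 6 genes of extracellular editing, release and shedding, 0 of 7 lysosomal genes and 0 of 8 genes of the GPI anchor and the convertases. In lists this short, 0 is near the 1.06% of all genes that passed without the block, and with the block 7.53% of all genes did. At an unadjusted p below 0.05, 0 genes in each of these lists passed without the block, and 1, 2, 0, 2 and 1 genes passed with it, beside 1097 of all 11067 genes without the block and 2563 with it. Their median log2 fold changes lay between -0.08 (lysosomal degradation) and 0.05 (sulfation and epimerization). Genes of these lists under the filter were not tested. Among them the lines did not overlap for Xylt1, Ndst3, Hs3st3b1, Hs3st5, Hpse and Mmp9, lower, and for Hs3st3a1 and Ndst4, higher. Mean levels in the control and the other libraries were 0.348 and 0.0397 RPKM for Xylt1, 1.39 and 0.683 RPKM for Hpse, and 0.339 and 0.439 RPKM for Hs3st3a1. Of all tested genes, 15.1% did not overlap. For the replicate number, 16 of the 64 listed genes passed the F-test (25%, beside 21.2% of all genes), among them Ext1, which encodes a chain polymerase, and Cd44.

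**Figure D5:**
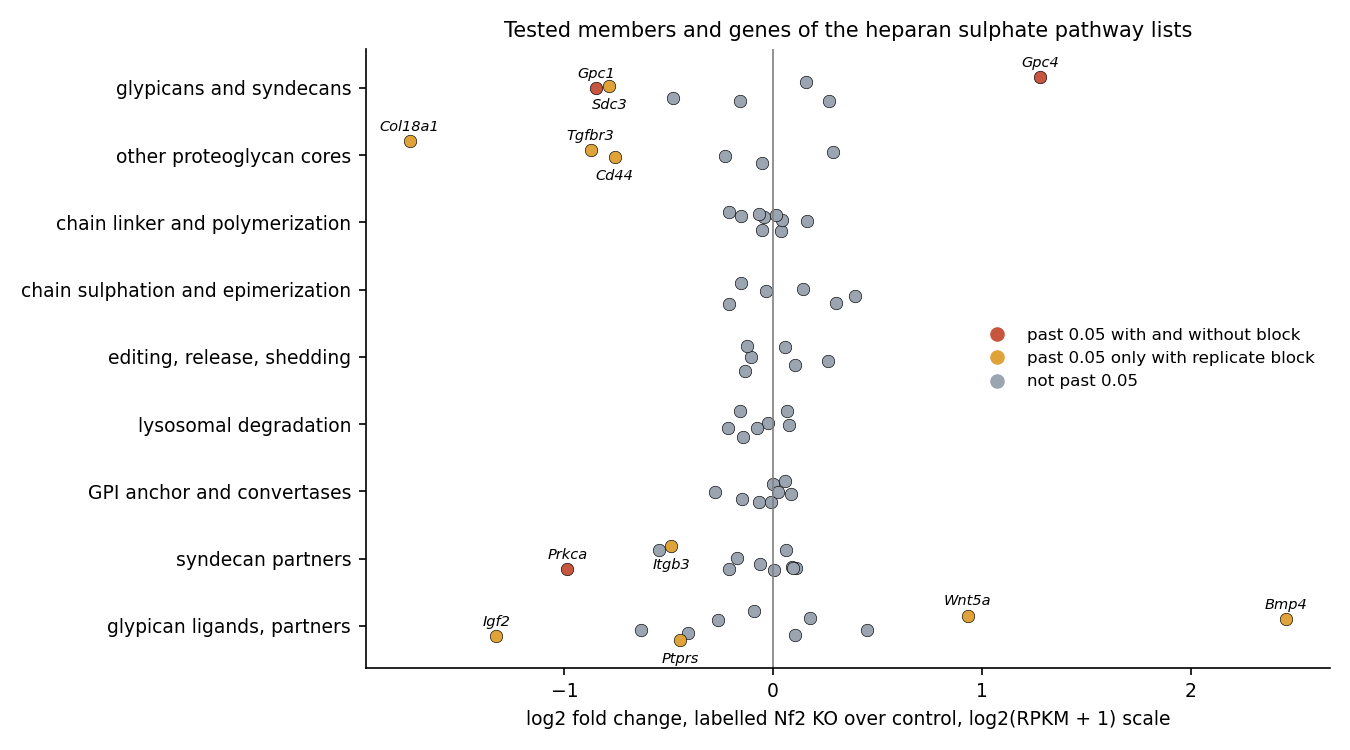
Log2 fold change between the lines, on the log2(RPKM + 1) scale, of the 7 tested members and the 64 tested pathway genes, 1 point per gene and 1 row per list, with the vertical position within a row spread at random. Colors give the side of the adjusted p of 0.05 on which a gene fell, which is a description only, since the members and lists were chosen with results of this contrast known, and the sulfation and epimerization genes lie between -0.21 (Hs2st1) and 0.39 (Hs6st2).

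For the most abundant member of each family, the 3 genes with the most similar pattern over the 6 libraries were sought among the other 11066 tested genes. For Sdc2 they were Ninl (Pearson's r = 0.990), Rasa2 (0.990) and Vopp1 (0.988), each highest in replicate 2 of its line. For Gpc4 they were Tlk2 (0.997), Lrp2 (0.996) and Egfr (0.995). Lrp2, which encodes the endocytic receptor megalin, was at 2.61, 5.08 and 2.68 RPKM in the control libraries and at 11.5, 11.3 and 11.6 RPKM in the others. These coefficients describe 6 points that share line, depth and replicate number, and were picked as the highest of many.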

How the data were processed

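Bulk RNA of 3 control MEF libraries and 3 libraries labelled MEF Nf2 KO was analysed. The authors deposited 1 table of RPKM values per gene, already scaled for depth and exon length; its unit was inferred from the values, and the submitters' notes name build mm10. The aligner and the counter are not given in the sources used here. Depth was estimated from the step that 1 read makes in the RPKM values and GENCODE exon lengths (26033 of 26231 genes): 86.3% to 87.7% of values of up to 20 reads lay within 0.1 read of a whole number, where 20% would if spread evenly.

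Genes that reached 1 RPKM in 3 or more libraries were fitted as log2(RPKM + 1) with limma 3.58.1 (R 4.3.3; trend and robust moderation, two-sided, Benjamini-Hochberg over 11067 genes, threshold 0.05). This scale understates fold changes of low genes. The main fit had no block. After the mean of its line was subtracted from each library, libraries with the same number correlated at 0.552, 0.819 and 0.516 over genes. Other pairs correlated at -0.681 to 0.493, and subtracting a mean of 3 libraries by itself pushes these values down. Replicates 1 and 3 of different lines correlated at 0.322 and 0.493. The correlations thus set replicate 2 apart and cannot decide whether replicates 1 and 3 are paired by number. The numbers, which the lines share in the labels, were taken as pairs, and blocked values are given where they change a call. The fits between the lines were also run on simulated data, and the outcome is not given here. Same-numbered libraries shared a term in that simulation, so it cannot test the pairing.

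The members and lists were chosen with earlier results of these data known. Named genes were all members, Nf2, every listed pathway gene past the threshold with or without the block, and the 3 genes most similar to the highest member of each family; genes near Gpc4 were added after their values were seen. Alternatives were the block, no filter or one of 5 RPKM, a pseudocount of 0.1, quantile normalization, median centring, no trend or robust moderation, voom on recovered reads, and leaving out libraries or replicate numbers.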

Additional observations from a re-analysis of the deposited data

How the results depend on the processing

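None of the 7 tested members changed direction in a setting that was run; Gpc3, Gpc5 and Gpc6 were not fitted. The replicate block raised the genes called between the lines from 117 to 833, the members called from 2 to 3 (Sdc3 added) and the pathway genes called from 1 to 9. Without a filter these counts were 9, 0 and 0 (1937, 5 and 14 at an unadjusted p below 0.05), and with a filter of 5 RPKM there were 63 genes and 1 member (Gpc4). Quantile normalization called 2 pathway genes. Leaving out libraries or replicate numbers gave 0 to 484 genes, 0 to 3 members and 0 to 7 pathway genes between the lines. The fits with 0 genes lacked replicate 1 or replicate 3 of both lines (578 and 556 genes, and 4 and 3 members, at an unadjusted p below 0.05). Where 1 library was left out, counts of 10 to 18 genes and 0 members came without replicate 1 or 3 of either line. The log2 fold change of Sdc4 ranged from -0.70 to -0.32 over these fits. For the replicate number, 2347 genes fell to 0 without a filter (5077 at an unadjusted p below 0.05) and ranged from 212 to 2037 with 1 library left out, the lowest without replicate 2 of either line (213 and 212). Members called there were 0 without a filter (3 at an unadjusted p below 0.05), 2 with a filter of 5 RPKM (Gpc2, Sdc3), 0 after quantile normalization (3 unadjusted), 3 after median centring and 3 with voom (Gpc2, Sdc2, Sdc3), and 0 to 2 with 1 library left out. The cause of these shifts was not tested. Depth limits Gpc3, Gpc5 and Gpc6, and with 1 line of each kind a difference between lines and an effect of Nf2 cannot be told apart.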
